A study of Mus musculus with 30 samples.

Results

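The PS2APP genotype was compared between 2 kinds of brain cell, asking for each gene whether its response in myeloid cells differed from its response in astrocytes. The PS2APP line expresses human transgenes for presenilin 2 and for the amyloid precursor protein, and its brain forms amyloid plaques. All mice were 11.5 months old, and the controls were non-transgenic (non-Tg). Of the 30 RNA sequencing libraries of the series, the 20 glial libraries were used. They formed 4 groups of 5: Cd11b+ sorted myeloid cells and Gfap+ sorted astrocytes, each from PS2APP and from non-Tg mice. Cd11b is encoded by Itgam, so Itgam and Gfap are the genes the sorts themselves selected on.

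The quantity tested was a difference of differences on the log2 scale, the PS2APP effect in myeloid libraries minus the PS2APP effect in astrocyte libraries. A positive value means a more positive response in myeloid cells. Of 15704 genes tested, 7176 reached at least 10 CPM (read counts scaled to library size) in the non-Tg or the PS2APP group of both sorts. Only these are called comparable here, because each sort then holds a readable level in its non-Tg or its PS2APP group. The other group of that sort may lie far lower. Of the 7176, 5997 reached that level in both genotypes of both sorts, 337 reached it in myeloid libraries through the PS2APP group alone and 342 in astrocyte libraries through the PS2APP group alone. In non-Tg libraries 6202 of them lay within 4-fold of each other in the 2 sorts, 435 were over 4-fold higher in myeloid and 539 over 4-fold higher in astrocyte libraries.

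Microglia are the resident macrophages of the brain. Around amyloid plaques they leave their resting state, which is marked by genes such as Cx3cr1, and turn on a programme of lipid handling, phagocytosis and growth factor signalling in which Apoe, Axl, Csf1 and Gpnmb take part. Astrocytes are the main source of Apoe in the healthy brain, supply Csf1 that keeps microglia alive, and respond to injury by raising the intermediate filament Gfap. Several genes of the plaque response are thus expressed by both cell types, and a change seen in whole tissue cannot be assigned to either.

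Total counts per library lay between 2015535 and 6581186, and PS2APP myeloid libraries were the shallowest (2015535 to 2908222). A count of 3 corresponded to 0.456 to 1.488 CPM. The sorts held their own markers: 15 myeloid markers summed to 10691 to 12208 CPM in non-Tg myeloid and 45.3 to 82.8 CPM in non-Tg astrocyte libraries, and 10 astrocyte markers to 9752 to 16629 CPM in non-Tg astrocyte and 462 to 887 CPM in non-Tg myeloid libraries. Within each sort 1 library lay apart from the rest on the first principal component, PS2APP myeloid replicate 4 (59.8, on a component with 30.2% of the variance) and PS2APP astrocyte replicate 3 (70.4, with 41.3%). Without both, 15 of the 22 genes reported below kept their call. Lost were Csf1 (edgeR adjusted p = 0.12), Axl (0.11), Slco2b1 (0.088), Apbb1ip (0.076), Bhlhe40 (0.065), Nckap1l (0.051) and Arhgap30 (0.051). Transcripts of the mitochondrial genome took 5.46 to 12.7% of counts in non-Tg and 9.46 to 16.72% in PS2APP myeloid libraries, and 2.41 to 4.74% and 5.6 to 8.6% in astrocyte libraries. Their part in the differences below was tested only as a covariate. No label ties a library to an animal. The p-values therefore measure library-to-library spread, which may be technical. In sorted bulk samples fewer cells of a type and less RNA per cell cannot be told apart.

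The PS2APP effect differed between the sorts for 22 of the 7176 comparable genes at an adjusted p of 0.05 (0.307%, edgeR quasi-likelihood test). It was more positive in myeloid libraries for 8 genes (0.111%): Gpnmb, Etl4, Myo1e, Gfap, Bhlhe40, Csf1, Axl and Apoe. It was more negative for 14 (0.195%): Abi3, Laptm5, Rasal3, Nckap1l, Csf3r, Slco2b1, Inpp5d, Arhgap30, Csf1r, Cx3cr1, Ggta1, Apbb1ip, Rab3il1 and ID102639643, an identifier without a symbol. Both sets were chosen by the difference of the 2 effects, so where they moved is a description. All 8 genes of the first set rose in myeloid libraries and none passed in astrocyte libraries. Of the 14 genes of the second set 12 rose in astrocyte libraries, 1 fell in myeloid libraries and 1 passed in neither. The 10 CPM level bears on this too. In the second set 12 genes reached it in astrocyte libraries only through the PS2APP group. In the first set 2 genes reached it in myeloid libraries only through that group.

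**Figure D1:**
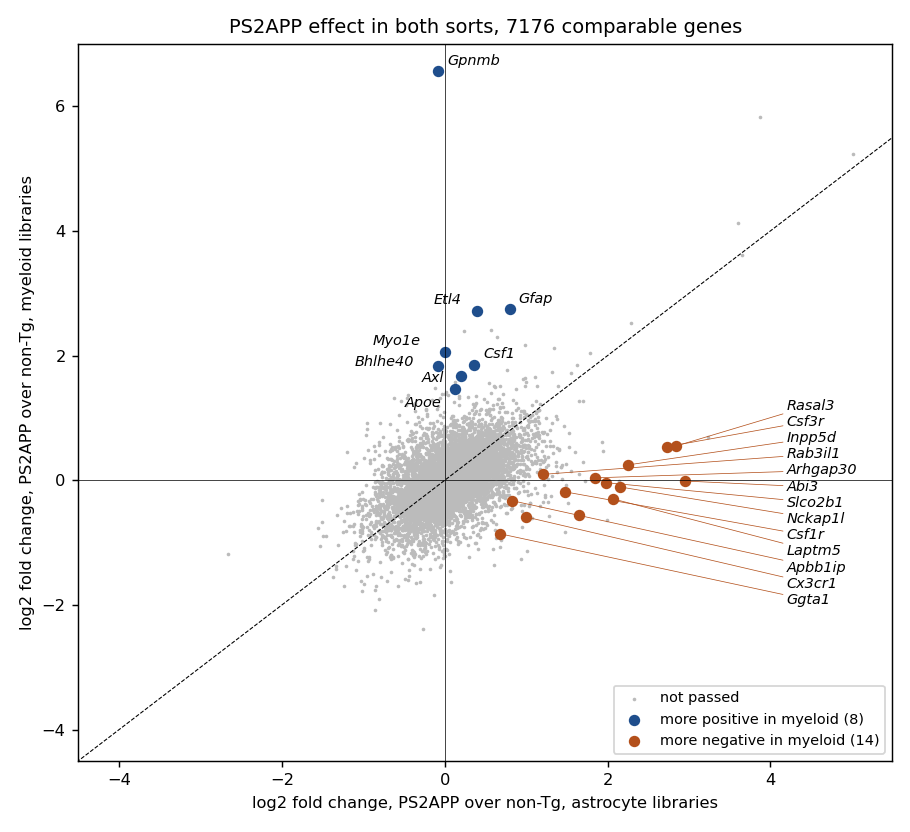
PS2APP effect in astrocyte libraries (horizontal) against the effect in myeloid libraries (vertical), both as log2 fold change PS2APP over non-Tg, for 7176 comparable genes; the dashed line marks equal effects. The 8 genes in blue lie high, with astrocyte effects from -0.08 to 0.80 (Gfap), and 13 of the 14 in orange lie to the right and near 0 on the vertical axis, with Ggta1 below it.

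Across the 7176 genes the median difference was -0.06, the median effect was 0.02 in myeloid and 0.07 in astrocyte libraries, and the effects in the 2 sorts had a Pearson correlation of 0.526 across genes, which are not independent replicates. Both effects were positive for 2849 genes and both negative for 2223. In their own sort 125 comparable genes passed in myeloid libraries (1.74%, with 66 higher, 0.92%, and 59 lower, 0.822%), and 95 passed in astrocyte libraries (1.32%, with 89 higher, 1.24%, and 6 lower, 0.0836%). Over all 15704 genes tested, 51 passed for the difference (0.325%), 170 in myeloid libraries (1.08%; 0.63% higher and 0.452% lower) and 167 in astrocyte libraries (1.06%; 0.987% higher and 0.0764% lower). At an unadjusted p under 0.05 the difference was reached by 517 comparable genes, 169 of them more positive and 348 more negative in myeloid libraries. The median standard error of the difference was 0.38, and the smallest absolute difference that passed was 1.11, so differences under about 2-fold were mostly not detectable at this depth and number of libraries.

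The 8 genes more positive in myeloid cells are taken by role, secreted proteins before receptors. Apoe is the main lipid-carrying apolipoprotein of the brain and lies on chromosome 7 at 19696244 to 19701310 (GRCm38.p6). Its level was 144, 135, 177, 171 and 153 CPM in the 5 non-Tg myeloid libraries and 451, 383, 357, 383 and 582 CPM in the 5 PS2APP ones. In astrocyte libraries it was 455, 664, 573, 543 and 514 CPM without and 792, 649, 451, 490.3 and 630.5 CPM with the transgenes. Every PS2APP myeloid library was above every non-Tg one, while the astrocyte groups overlapped. The mean myeloid level was 156 ± 18.1 CPM without and 431 ± 91.4 CPM with the transgenes (SD, n = 5 each), and the log2 change was 1.47 ± 0.18 (SE, edgeR adjusted p = 1.1e-05). The astrocyte level went from 549.7 ± 77.1 to 603 ± 137 CPM, a log2 change of 0.13 with a 95% interval of -0.22 to 0.48. The difference of 1.34 ± 0.24 passed (edgeR adjusted p = 0.0081) and kept its call with each of the 20 libraries left out. Non-Tg astrocyte libraries held 3.52 times the Apoe of non-Tg myeloid libraries, and PS2APP astrocyte libraries 1.4 times that of PS2APP myeloid libraries.

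Csf1, a growth factor that binds the receptor Csf1r on microglia, showed the same pattern at a lower level (chromosome 3, 107741048 to 107760469). It stood at 18.9, 34.7, 40.9, 28.8 and 25.9 CPM in non-Tg myeloid libraries and at 85.5, 72.1, 148, 139.8 and 90.6 CPM in PS2APP ones. The astrocyte libraries held 109, 95.6, 83.9, 138 and 101 CPM without and 134, 168, 105, 118 and 154 CPM with the transgenes. The myeloid groups did not overlap and the astrocyte groups did. The log2 change was 1.84 ± 0.23 in myeloid libraries (SE, edgeR adjusted p = 2.2e-05) and 0.36 ± 0.22 in astrocyte libraries (edgeR adjusted p = 0.45), a difference of 1.48 ± 0.32 (edgeR adjusted p = 0.033). That call was kept in 8 of the 20 fits that left out 1 library, with differences of 1.25 to 1.55, and the highest adjusted p was 0.091.

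The receptors Axl and Gpnmb rose in myeloid libraries. Axl is a TAM receptor tyrosine kinase that binds the bridging ligand Gas6 on apoptotic cells and debris (chromosome 7, 25756500 to 25788924). It stood at 100.5, 91.5, 58.1, 57.7 and 33.3 CPM in non-Tg and at 170.3, 175, 245, 309 and 186 CPM in PS2APP myeloid libraries, with no overlap. Astrocyte libraries already held 265, 310.2, 208, 245 and 247 CPM in non-Tg mice and 247, 339, 324, 225 and 332 CPM in PS2APP mice, with overlap. The log2 change was 1.67 ± 0.23 in myeloid libraries (SE, edgeR adjusted p = 0.00016) and 0.20 ± 0.23 in astrocyte libraries (edgeR adjusted p = 0.71). The difference of Axl, 1.47 ± 0.32, passed narrowly (edgeR adjusted p = 0.042). It was kept in 4 of 20 fits with 1 library left out, those without non-Tg myeloid replicates 1 and 2, PS2APP astrocyte replicate 3 and non-Tg astrocyte replicate 3, and ranged from 1.22 to 1.57 with a highest adjusted p of 0.11.

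Gpnmb, a transmembrane glycoprotein found in phagocytes that take up lipid, had the largest difference of the 22 (chromosome 6, 49036518 to 49058182). Its level was 0, 0.306, 0, 0.401 and 0 CPM in non-Tg myeloid libraries, from 5 counts in all, and 19, 15.1, 26.8, 19.5 and 17.8 CPM in PS2APP ones, from 244 counts. Astrocyte libraries held 40.3, 37.3, 26.8, 20 and 24.9 CPM in non-Tg and 23.6, 25.4, 34.8, 34.2 and 22.9 CPM in PS2APP mice. Gpnmb was thus present at near-equal levels in astrocyte libraries of both genotypes, 29.8 ± 8.58 and 28.2 ± 5.84 CPM (SD, n = 5 each), and near absent from non-Tg myeloid libraries. The fitted difference was 6.65 with a 95% interval of 5.42 to 7.88 (edgeR adjusted p = 6.5e-08). It kept its call in all 20 fits with 1 library left out (6.34 to 7.29), and its size rests on the 5 counts of the non-Tg myeloid group. Gpnmb passed the 10 CPM level in myeloid libraries only through the PS2APP group.

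Of the cytoskeletal genes, Myo1e encodes a class I myosin that links membranes to actin. It went from 16.8, 30.1, 21.1, 27.4 and 17.4 CPM to 59.3, 81.9, 128, 106 and 95.9 CPM in myeloid libraries. The astrocyte libraries held 35.9 to 67.7 CPM (median 52.6) in non-Tg and 42.6 to 62.4 CPM (median 51.4) in PS2APP mice. The myeloid groups were apart and the PS2APP astrocyte values fell inside the non-Tg range, which gave a difference of 2.05 ± 0.33 (SE, edgeR adjusted p = 0.0015). Myo1e and Etl4 were the 2 genes of the 8 that were higher in PS2APP myeloid than in PS2APP astrocyte libraries. Etl4 went from 15.9 ± 4.22 to 105 ± 37.1 CPM in myeloid and from 28.5 ± 12.8 to 37.7 ± 15.9 CPM in astrocyte libraries (SD, n = 5 each), a difference of 2.32 ± 0.43 (edgeR adjusted p = 0.0082). Within PS2APP astrocytes, replicate 2 held 66.1 CPM of Etl4 and the other 4 libraries 28.8 to 32.6 CPM. Both genes kept their call in all 20 fits with 1 library left out.

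Gfap, the intermediate filament of astrocytes, was among the 8 although it marks the other sort. It stood at 13.8, 13.3, 10.9, 19.9 and 20.9 CPM in non-Tg myeloid libraries and at 79.4, 163, 92.3, 81.4 and 121 CPM in PS2APP ones. Astrocyte libraries held 721, 672, 843, 416 and 742 CPM in non-Tg and 967, 1135, 1431, 1048 and 1323 CPM in PS2APP mice. The groups were apart in both sorts. The log2 change was 2.75 ± 0.23 in myeloid libraries (SE, edgeR adjusted p = 1e-08) and 0.80 ± 0.21 in astrocyte libraries (edgeR adjusted p = 0.059), a difference of 1.96 ± 0.31 (edgeR adjusted p = 0.0012). The Gfap level of myeloid libraries was 2.33% of that of astrocyte libraries in non-Tg and 9.09% in PS2APP mice. Of the 10 astrocyte markers in myeloid libraries 3 had a positive effect and 1 rose (Gfap), with Sox9, a transcription factor, at 0.93 ± 0.46 (edgeR adjusted p = 0.29). Another 2 fell (Aqp4, a water channel, at -1.67, and Gja1, a gap junction protein, at -1.58) and the median effect was -0.42. Their sum was 462 to 887 CPM in non-Tg and 549 to 843 CPM in PS2APP myeloid libraries, with the glutamate transporter Slc1a2 at 468 and 429.9 CPM. None of the 10 was at 0. Among the 7176 comparable genes 3727 had a positive effect in myeloid libraries. Of all genes tested 0.63% rose and 0.452% fell there.

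Bhlhe40, a transcriptional repressor, was the 1 transcription factor of the 8. It went from 2.3, 6.12, 6.52, 14 and 7.74 CPM to 21.2, 26.3, 21.5, 52.5 and 15.7 CPM in myeloid libraries, where PS2APP replicate 4 was the highest. Like Gpnmb it passed the 10 CPM level in myeloid libraries only through the PS2APP group, so that a rise was needed for it to be counted. In astrocyte libraries Bhlhe40 was higher throughout, with a mean of 132 ± 13.1 CPM without and 125 ± 26.6 CPM with the transgenes (SD, n = 5 each). The difference of 1.92 ± 0.43 (SE, edgeR adjusted p = 0.042) kept its call in 3 of the 20 fits with 1 library left out, those without PS2APP astrocyte replicate 3, non-Tg myeloid replicate 4 and PS2APP myeloid replicate 5. Without PS2APP myeloid replicate 4 the difference of Bhlhe40 was 1.52 (edgeR adjusted p = 0.1).

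**Figure D2:**
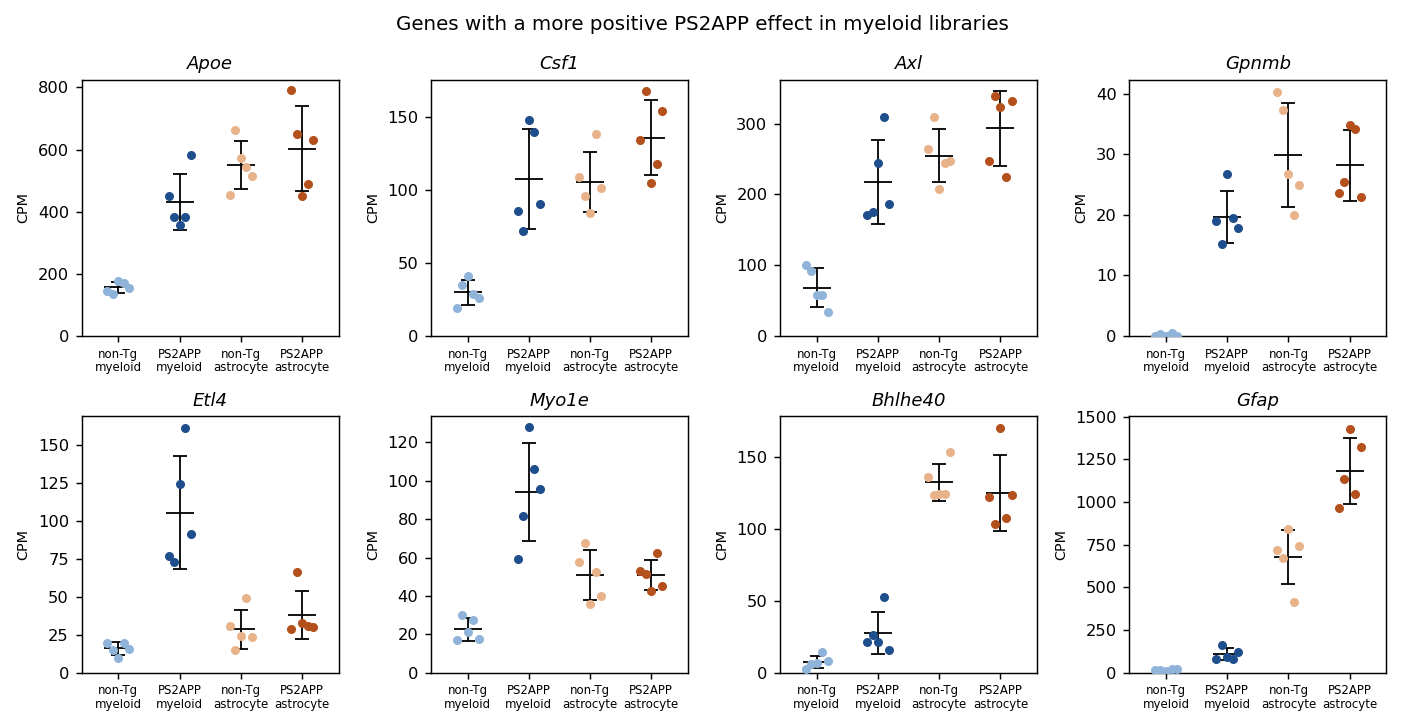
Level in CPM in each of the 20 libraries for the 8 genes with a more positive PS2APP effect in myeloid than in astrocyte libraries; points are libraries, bars the mean and whiskers the SD (n = 5 per group). In every panel the non-Tg myeloid group has the lowest mean and lies below all PS2APP myeloid libraries, and apart from Gfap the astrocyte groups overlap. The 8 genes were chosen by a difference built from these same values.

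Each of the 8 genes was higher in non-Tg astrocyte than in non-Tg myeloid libraries, by 1.8-fold (Etl4) to 211-fold (Gpnmb), which was so for 3149 of the 7176 comparable genes (43.9%). The same non-Tg values enter the difference that chose the 8, so this is a description. Of the 8, 1, Gfap, had astrocyte groups that did not overlap, and all 8 had myeloid groups that did not. The values that chose the 8 also bear on this separation. Its share among all comparable genes was not counted. Per gene length, as mean deposited RPKM, the order in non-Tg astrocyte libraries was Apoe (132 ± 18.3), Gfap (48.9 ± 11.8), Axl (16.8 ± 2.36), Bhlhe40 (14.2 ± 1.46) and Csf1 (7.96 ± 1.48), followed by Gpnmb and Myo1e (2.63 each) and Etl4 (0.69). In that order the mean ± SD ranges of Axl and Bhlhe40 overlapped, as did those of Gpnmb and Myo1e. In PS2APP myeloid libraries the order was Apoe (102 ± 21.2), Axl (14 ± 3.98), Csf1 (7.94 ± 2.54), Gfap (7.56 ± 2.48), Myo1e (4.78), Bhlhe40 (2.91), Etl4 (2.5) and Gpnmb (1.7), and from Axl on each range overlapped that of the next gene.

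Promoters of the genes that passed were read from the RefSeq table (GRCm38.p6), as windows of 300 bases from 250 before to 50 after a start site. They are shown for 3 genes that hold a match to a searched motif, with the match in capitals. Gpnmb (chr6:49036268-49036567, plus strand) holds the AP-1 letters TGANTCA, Gfap (chr11:102897151-102897450, minus strand) the STAT letters TTCNNNGAA, and Inpp5d (chr1:87620062-87620361, plus strand), from the set more negative in myeloid cells, the PU.1 core letters GAGGAAGT.
Gpnmb: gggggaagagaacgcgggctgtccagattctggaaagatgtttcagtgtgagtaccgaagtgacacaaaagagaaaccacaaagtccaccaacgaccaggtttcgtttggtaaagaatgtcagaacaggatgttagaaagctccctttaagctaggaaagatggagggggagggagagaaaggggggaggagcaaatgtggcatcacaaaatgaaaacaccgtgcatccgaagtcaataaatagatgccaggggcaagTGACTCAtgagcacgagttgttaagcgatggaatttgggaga
Gfap: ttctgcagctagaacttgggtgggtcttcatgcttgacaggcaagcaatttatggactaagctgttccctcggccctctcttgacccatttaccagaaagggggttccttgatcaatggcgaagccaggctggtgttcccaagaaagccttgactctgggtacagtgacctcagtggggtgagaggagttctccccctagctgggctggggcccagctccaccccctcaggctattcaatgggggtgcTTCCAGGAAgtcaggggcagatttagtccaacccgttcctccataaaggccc
Inpp5d: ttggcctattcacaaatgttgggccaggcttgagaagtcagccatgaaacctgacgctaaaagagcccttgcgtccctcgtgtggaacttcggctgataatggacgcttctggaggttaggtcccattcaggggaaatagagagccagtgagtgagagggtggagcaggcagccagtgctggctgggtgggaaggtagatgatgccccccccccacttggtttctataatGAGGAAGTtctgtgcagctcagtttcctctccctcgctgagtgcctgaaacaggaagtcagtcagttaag
Both strands were searched, and the fourth motif was the E-box CACGTG. The AP-1 letters occurred in 7.81% of all 32851 promoters and in 4.72% of the 7571 promoters of comparable genes, the STAT letters in 8.3% and 6.91%, the PU.1 core in 3.2% and 2.67%, and the E-box in 7.15% and 9.97%. Of the 8 genes more positive in myeloid cells 7 had promoters in the table, 11 in all, with 1 match each to AP-1, STAT and the E-box and none to the PU.1 core. Of the 14 genes more negative in myeloid cells 10 had promoters, 17 in all, of which 3 held the PU.1 core, 4 the STAT letters, 4 the E-box and 1 AP-1. The 4 STAT windows belong to Rasal3 and Slco2b1 and the 4 E-box windows to Rab3il1 and Rasal3, some of whose windows overlap and share a match. The windows of Apoe, Csf1 and Axl held none of the 4 motifs. A match is a description of these letters, not of binding.

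The genes whose response was more negative in myeloid libraries were of another kind. Of the 14, 13 were far more abundant in myeloid cells, by 55.9-fold (Rab3il1) to 469-fold (Laptm5) in non-Tg mice. None of these 13 passed in myeloid libraries, where their log2 changes lay between -0.59 (Cx3cr1) and 0.55 (Rasal3), and 12 rose in astrocyte libraries, from 2.8 to 10.3 CPM in non-Tg up to 11.4 to 35.7 CPM in PS2APP mice. Their astrocyte level was 0.213 to 1.79% of the myeloid level in non-Tg and 1.07 to 7.95% in PS2APP mice. Of the 14, 12 passed the 10 CPM level in astrocyte libraries only through the PS2APP group, so that a rise there was needed for them to be counted. Csf1r and Ggta1 passed it in both genotypes. Just inside the level were Laptm5 (11.4 CPM), Arhgap30 (11.7 CPM) and ID102639643 (12.7 CPM), and just outside it were Gm8995 (9.79 CPM), Dock2 (9.46 CPM) and Fcrls (9.37 CPM), whose differences also passed.

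Csf1r, the receptor for Csf1 and a defining gene of microglia, was the most precise of these. It stood at 9.74, 10.1, 13.4, 11.1 and 7.41 CPM in non-Tg astrocyte libraries and at 33.1, 28.6, 30.1, 26.3 and 25.8 CPM in PS2APP ones, with no overlap. In myeloid libraries it stood at 1909.6 to 2216 CPM (median 2014) in non-Tg and 1617 to 2028 CPM (median 1757) in PS2APP mice, with overlap. The log2 change was 1.48 ± 0.16 in astrocyte libraries (SE, edgeR adjusted p = 4e-06) and -0.18 ± 0.14 in myeloid libraries (edgeR adjusted p = 0.52), a difference of -1.66 ± 0.22 (edgeR adjusted p = 0.00018) that kept its call in all 20 fits with 1 library left out. Per length, the PS2APP astrocyte level of Csf1r was 2.24 ± 0.239 RPKM against 137 ± 12.4 RPKM in PS2APP myeloid libraries.

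Csf3r, the receptor for granulocyte colony-stimulating factor, had values of 6.55, 5.41, 5.57, 5.91 and 3.15 CPM in non-Tg and 19.3, 27.5, 84.6, 23.9 and 23.3 CPM in PS2APP astrocyte libraries. Replicate 3 of the PS2APP group was the highest by far, and the groups were apart with or without it. The difference was -2.19 ± 0.41 (SE, edgeR adjusted p = 0.0096), and without PS2APP astrocyte replicate 3 it was -1.59 for Csf3r (edgeR adjusted p = 0.0032). Cx3cr1, the fractalkine receptor of resting microglia, stood at 992 to 1493 CPM (median 1288) in non-Tg and 667 to 941 CPM (median 887) in PS2APP myeloid libraries, with no overlap but no call (-0.59 ± 0.21, edgeR adjusted p = 0.15). Its astrocyte level was 7.25 ± 2.23 CPM without and 14.3 ± 5.81 CPM with the transgenes (SD, n = 5 each), with overlap, and the difference was -1.59 ± 0.33 (edgeR adjusted p = 0.029). The Cx3cr1 call was lost without non-Tg astrocyte replicate 1, non-Tg astrocyte replicate 2 or PS2APP astrocyte replicate 4 (edgeR adjusted p = 0.052, 0.057 and 0.06).

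Abi3 and Nckap1l encode parts of the actin machinery. Abi3, an adaptor of the WAVE actin complex, had 1.12, 2.8, 8.36, 6.19 and 3.15 CPM in non-Tg and 37.3, 19.6, 50.4, 30.3 and 26.5 CPM in PS2APP astrocyte libraries, with no overlap. Its myeloid level was 1303 ± 193 CPM without and 1293 ± 210.4 CPM with the transgenes (SD, n = 5 each), and the difference of -2.96 ± 0.40 (SE) was the most negative of the 22 (edgeR adjusted p = 0.00024). Nckap1l, another WAVE complex subunit of blood cells, had a difference of -2.26 ± 0.48 (edgeR adjusted p = 0.029). PS2APP astrocyte replicate 3 held 35.4 CPM of Nckap1l and the other 4 held 5.82 to 12.9 CPM. Without that library the difference of Nckap1l was -1.65 (edgeR adjusted p = 0.045), but its PS2APP astrocyte mean then fell under 10 CPM and it was no longer comparable. The call was also lost without PS2APP myeloid replicate 2 or non-Tg astrocyte replicate 2, 3, 4 or 5 (edgeR adjusted p = 0.052 to 0.061).

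A further 4 were Inpp5d, a phosphatase that limits immune receptor signals, the GTPase-activating proteins Rasal3 and Arhgap30, and Apbb1ip, an adaptor of integrin activation. Inpp5d went from 1.87, 3.73, 5.02, 4.22 and 2.47 CPM to 9.5, 21.1, 31.6, 14.3 and 6.18 CPM in astrocyte libraries, with no overlap, and its difference was -2.01 ± 0.41 (SE, edgeR adjusted p = 0.021). Rasal3 had a difference of -2.29 ± 0.52 (edgeR adjusted p = 0.045), with 66.4 CPM in PS2APP astrocyte replicate 3 against 11.6 to 18.2 CPM in the other 4. Without that library the Rasal3 difference was -1.58 and did not pass (edgeR adjusted p = 0.083), and the call was kept in 8 of 20 fits with 1 library left out. Arhgap30 (-1.80 ± 0.38, edgeR adjusted p = 0.029) lost its call without PS2APP astrocyte replicate 3 or non-Tg astrocyte replicate 1, 3 or 5, with a highest adjusted p of 0.063. Apbb1ip (-1.16 ± 0.26, edgeR adjusted p = 0.042) kept its call in 8 of 20 fits, with differences of -1.31 to -0.98, and lost it without PS2APP astrocyte replicate 3 (0.055) and without PS2APP myeloid replicate 4 (0.062).

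Laptm5, a lysosomal membrane protein of blood cells, had a mean of 2.8 ± 1.48 CPM in the non-Tg and of 11.4 ± 6.29 CPM in the PS2APP astrocyte group (SD, n = 5 each). These groups overlapped, with 4 CPM in PS2APP replicate 5 and 5.02 CPM in non-Tg replicate 3, and the difference was -2.37 ± 0.41 (SE, edgeR adjusted p = 0.0034). Without PS2APP astrocyte replicate 2 the Laptm5 difference was -2.12 (edgeR adjusted p = 0.0064), but its PS2APP astrocyte mean fell under 10 CPM. Slco2b1, an organic anion transporter, had -2.02 ± 0.43 (edgeR adjusted p = 0.033), and Rab3il1, an exchange factor for Rab GTPases, had -1.11 ± 0.24 (edgeR adjusted p = 0.037). Slco2b1 lost its call without PS2APP astrocyte replicate 3, PS2APP myeloid replicate 2 or non-Tg astrocyte replicate 5 (highest adjusted p 0.076). Rab3il1 lost its call without non-Tg astrocyte replicate 1, PS2APP astrocyte replicate 4 or non-Tg astrocyte replicate 5 (highest adjusted p 0.074). ID102639643 had -2.21 ± 0.44 (edgeR adjusted p = 0.017).

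Ggta1 stood apart from the other 13. It encodes the galactosyltransferase that builds a surface sugar epitope (chromosome 2, 35400179 to 35464381), and the list of reactive astrocyte genes holds it. It stood at 82.3, 115, 99.1, 93 and 95.7 CPM in non-Tg myeloid libraries and at 70.1, 62.9, 56, 34.2 and 43.4 CPM in PS2APP ones. In astrocyte libraries it stood at 43.1, 32.2, 39.8, 33.6 and 38.9 CPM in non-Tg and 62.2, 61.4, 55.1, 58.5 and 64.4 CPM in PS2APP mice. The groups did not overlap in either sort and lay in opposite order. The myeloid fall of -0.86 ± 0.19 passed (SE, edgeR adjusted p = 0.024), the astrocyte change of 0.68 ± 0.19 did not (edgeR adjusted p = 0.083), and the difference of -1.54 ± 0.27 did (edgeR adjusted p = 0.0048). The difference kept its call in all 20 fits with 1 library left out (-1.72 to -1.47), and the myeloid fall was lost without non-Tg myeloid replicate 2 or PS2APP myeloid replicate 4 or 5 (highest adjusted p 0.06). Non-Tg myeloid libraries held 2.58 times the Ggta1 of non-Tg astrocyte libraries. It was the 1 gene of the 14 within 4-fold between the sorts.

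**Figure D3:**
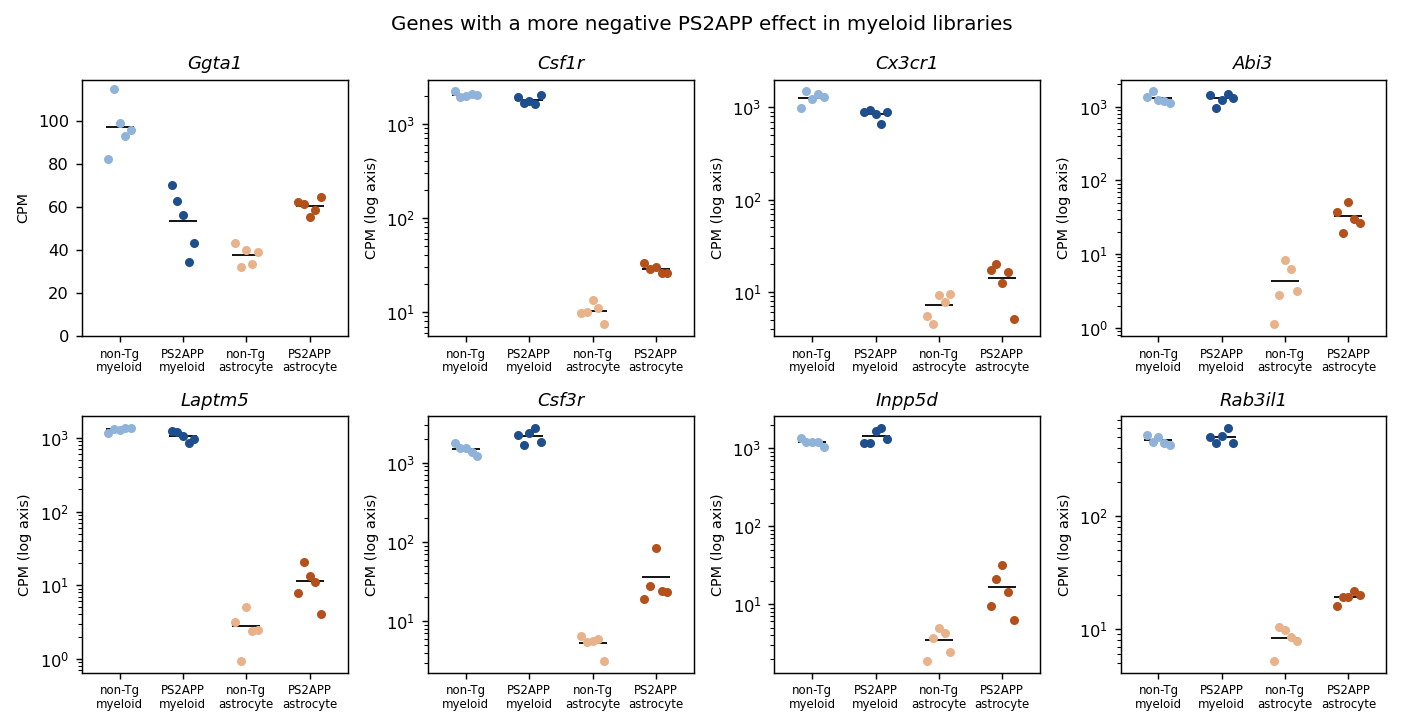
Level in CPM in each library for 8 of the 14 genes with a more negative PS2APP effect in myeloid than in astrocyte libraries; Ggta1 has a linear axis from 0 and the other panels a log axis, and bars are means (n = 5 per group). Ggta1 is lower in PS2APP myeloid and higher in PS2APP astrocyte libraries, while the other 7 genes are higher in PS2APP astrocyte libraries, at a few percent or less of the myeloid level.

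Markers of myeloid cells moved in the astrocyte libraries beside these 13 genes. Of the 15 markers 13 had a positive effect there and 8 rose. Their median effect was 1.48, against -0.18 for the same genes in myeloid libraries. Among the 7176 comparable genes 4075 had a positive effect in astrocyte libraries, and 0.987% of all genes tested rose there. The 15 markers summed to 45.3 to 82.8 CPM in non-Tg and 85.4 to 183 CPM in PS2APP astrocyte libraries. These sums did not overlap, and none of the markers was at 0 in either group. As a share of the myeloid level they stood at 0.158 to 1.86% (median 0.428%) in non-Tg and 0.816 to 3.61% (median 1.43%) in PS2APP astrocyte libraries. The markers did not move alike. C1qb, a subunit of complement C1q, rose by 2.30 ± 0.32 on the log2 scale (SE, edgeR adjusted p = 0.00012) and Fcrls by 2.93 ± 0.38 (edgeR adjusted p = 4.3e-05). Tmem119, a surface marker of microglia, stood at 0.00 ± 0.48 (edgeR adjusted p = 1). Csf1r, Cx3cr1 and Laptm5 are both among these markers and among the 14 genes.

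**Figure D4:**
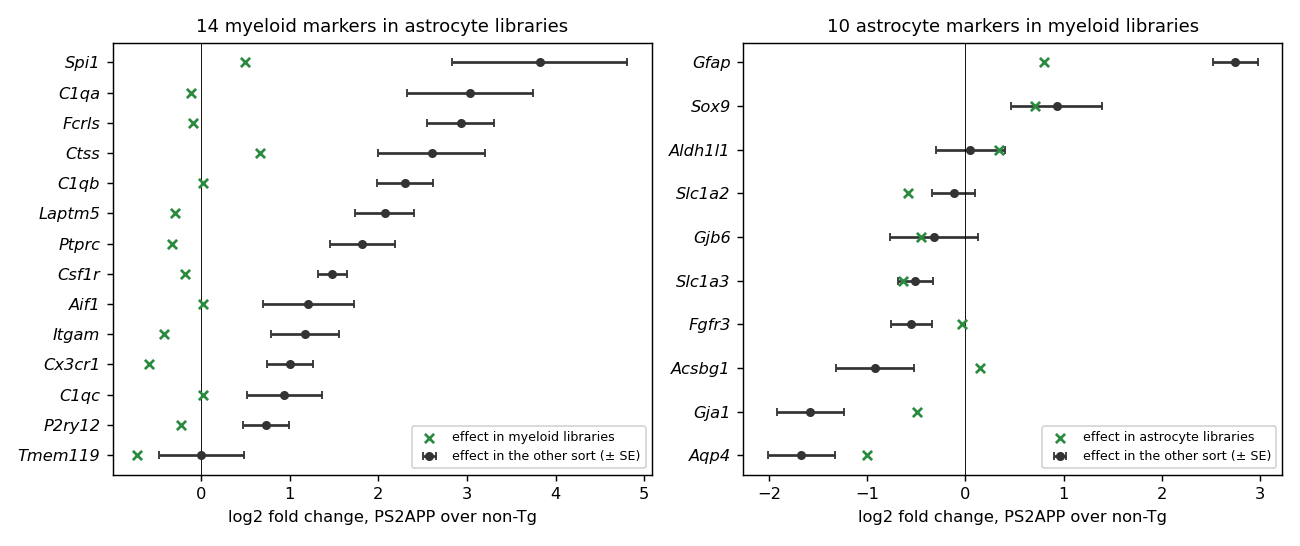
PS2APP effect (log2 fold change, PS2APP over non-Tg) of 14 of the 15 myeloid markers in astrocyte libraries (left) and of 10 astrocyte markers in myeloid libraries (right), as points with their SE, beside the effect of the same gene in its own sort (crosses). Among myeloid markers 13 of the 14 points drawn lie right of 0 and each lies right of its cross, and among astrocyte markers Gfap lies far right of 0 while Aqp4 and Gja1 lie left of it.

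In a fit with the log2 sums of the other sort's markers as covariates, 2 comparable genes passed, and Gpnmb was the 1 of the 22 that kept its call. In that fit Cx3cr1 stood at -0.01, Inpp5d at -0.27, Slco2b1 at -0.28 and Laptm5 at -0.56, while Abi3 (-2.06), Csf1r (-1.49) and Ggta1 (-1.65) did not pass either (edgeR adjusted p = 0.30, 0.15 and 0.21). The 8 genes more positive in myeloid cells stood between 1.28 (Apoe) and 6.29 (Gpnmb) in that fit, and the rise of each of the 8 in myeloid libraries passed in it, with Bhlhe40 at the highest edgeR adjusted p (0.0023). The covariates include Gfap, Csf1r, Cx3cr1 and Laptm5, and the myeloid marker sums of PS2APP and non-Tg astrocyte libraries do not overlap, so that genotype and marker level cannot be told apart there. Other cell types moved too. Neuron markers summed to 318 to 551 CPM in non-Tg and 538 to 739 CPM in PS2APP myeloid libraries, and to 834 to 1246 and 1379 to 2661 CPM in astrocyte libraries. Oligodendrocyte markers summed to 618 to 989 and 1068 to 1707 CPM in myeloid libraries, with no overlap, and to 746 to 1161 and 953 to 2006 CPM in astrocyte libraries, with overlap. The part of these cells in the differences was not tested. Neutrophil and monocyte markers were near 0 in astrocyte libraries, where S100a8, Ly6g, Ly6c2 and Plac8 were listed at 0 in all 10 libraries. In myeloid libraries these markers varied widely, with sums of 85.1 to 1123 CPM in non-Tg and 25.2 to 738 CPM in PS2APP mice. Border macrophage markers summed to 38.1 to 183 and 37.8 to 79.6 CPM in myeloid libraries. The part of such cells in the myeloid effects was not tested.

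The genes around the 3 markers Apoe, Csf1 and Axl were compared by list. Of the 32 genes of the plaque-associated microglial state 14 were comparable. The difference passed for 4, all more positive in myeloid libraries (Apoe, Csf1, Axl and Gpnmb), and the list's median difference was 0.37, beside -0.06 for all comparable genes. In myeloid libraries 5 rose and none fell, and in astrocyte libraries 2 rose (B2m and Fth1) and none fell. The other 10 members, which include the cathepsins Ctsb, Ctsd, Ctsl and Ctsz, had differences of -0.93 (B2m) to 1.09 (Ank), and none passed. The list's direction in myeloid cells is known from such mice, so it is not independent evidence. Of 23 resting microglia genes 13 were comparable, with 2 differences more negative in myeloid libraries (Csf1r and Cx3cr1) and a median of -0.63. Of these, Cx3cr1, Siglech, P2ry12 and Tgfbr1 passed the 10 CPM level in astrocyte libraries only through the PS2APP group. A rise there was needed for them to be counted, which bears on that median. Adgrg1, an adhesion receptor, fell in myeloid libraries (-0.63 ± 0.15, SE, edgeR adjusted p = 0.038) and had an astrocyte change of 0.01 ± 0.15, with levels of 235 and 237 CPM. Its difference of -0.64 ± 0.21 did not pass (edgeR adjusted p = 0.28).

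In the colony-stimulating factor list 4 of 9 genes were comparable. The ligand Csf1 was more positive in myeloid libraries, the receptors Csf1r and Csf3r were more negative, and Csf2ra, a receptor subunit for granulocyte-macrophage colony-stimulating factor, stood at -0.52 ± 0.34 (edgeR adjusted p = 0.74). In the TAM list 7 of 9 genes were comparable and Axl was the 1 that passed. The related receptor Mertk had a difference of 0.01 ± 0.26, with -0.33 ± 0.19 in myeloid and -0.34 ± 0.19 in astrocyte libraries, and the ligand Gas6 had -0.05 ± 0.26 (edgeR adjusted p = 1 and 0.99). Mertk stood at 1088 and 867 CPM in non-Tg and PS2APP myeloid libraries and at 510.2 and 404 CPM in astrocyte libraries. The list's ligands and integrins Mfge8, Pros1, Itgav and Itgb5 had differences of -0.77 to -0.27.

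Of 26 lipid transport and uptake genes 15 were comparable, with a median difference of 0.00. Apoe was the 1 that passed. Fabp7, a fatty acid-binding protein, also rose in myeloid libraries, from a mean of 3.83 ± 3.03 CPM to one of 19 ± 3.24 CPM (SD, n = 5 each), and its log2 change was 2.30 ± 0.53 (SE, edgeR adjusted p = 0.029). It passed the 10 CPM level in myeloid libraries only through the PS2APP group. Its astrocyte change was 0.65 ± 0.49, and the difference of 1.65 had a 95% interval of 0.19 to 3.11 and did not pass (edgeR adjusted p = 0.48). Clu, an apolipoprotein abundant in astrocytes, had a difference of 0.29 ± 0.32, and the cholesterol exporter Abca1 had -0.15 ± 0.20 (edgeR adjusted p = 0.87 and 0.90).

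Of 30 reactive astrocyte genes 9 were comparable, with 1 difference in each direction (Gfap and Ggta1) and a median of -0.04. C4b, a complement component, rose in astrocyte libraries from 414 ± 42.1 to 926 ± 202 CPM (SD, n = 5 each; log2 change 1.16 ± 0.26, SE, edgeR adjusted p = 0.024), and reads of the near-identical C4a may have been split with it. Stat3, a transcription factor of reactive astrocytes, stood at 0.33 ± 0.19 in myeloid and 0.69 ± 0.19 in astrocyte libraries (edgeR adjusted p = 0.36 and 0.072). No difference passed among the 18 comparable astrocyte support genes, 24 lysosome, 14 interferon response, 13 glycolysis, 13 heat shock, 11 TGF-beta pathway, 7 cholesterol synthesis, 6 immediate early, 6 MHC class I and 5 complement genes. Their median differences lay between -0.34 (complement and TGF-beta) and 0.25 (glycolysis). Some members were comparable only through a PS2APP group, which bears on these medians. In astrocyte libraries these included Itgam of the complement list and Tgfbr1, Tgfbr2 and Skil of the TGF-beta list. The difference also passed for none of the 7 mitochondrially encoded genes, with a median of -0.35. Of these 7, 5 rose in astrocyte libraries and none passed in myeloid libraries. Of the lists of other cell types, 10 neuron, 6 oligodendrocyte, 2 precursor and 3 vascular genes were comparable and none passed, with medians of 0.01, -0.38, -0.23 and 0.29.

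Some genes rose in both sorts. Among comparable genes 13 passed in both (0.181%), all in the same direction, and none passed in opposite directions. The 8 of smallest summed p were Arhgap6, Nlrc5, Thy1, Fth1, Camk2a, Dock6, C4b and Cherp. Of 20 fits with 1 library left out, the calls in myeloid and astrocyte libraries were kept in 20 and 20 for Arhgap6, 20 and 16 for Nlrc5, 20 and 16 for Thy1 and 19 and 16 for Fth1. They were kept in fewer for Camk2a (5 and 15), Dock6 (4 and 14), C4b (4 and 14) and Cherp (12 and 9). Nlrc5, which switches on MHC class I genes, rose by 1.86 ± 0.35 in myeloid and 1.63 ± 0.36 in astrocyte libraries (SE, edgeR adjusted p = 0.0051 and 0.021). Fth1, the heavy chain of the iron store ferritin, rose by 1.2 ± 0.24 and 1.07 ± 0.25 (edgeR adjusted p = 0.013 and 0.027). The 95% interval of the difference was -0.77 to 1.24 for Nlrc5 and -0.57 to 0.84 for Fth1, so a 2-fold difference lies inside the first and outside the second. Thy1, a surface glycoprotein of neurons, rose by 2.13 ± 0.32 and 1.34 ± 0.31, with a difference of 0.78 (-0.10 to 1.67). Thy1 and Camk2a are neuronal genes, and the neuron marker sums given above moved in the same direction. Camk2a is itself among the summed markers, so for Camk2a this is partly built in. It went from 164 to 318 CPM in myeloid and from 204 to 425 CPM in astrocyte libraries. Mean neuron sums went from 389 to 664 CPM in myeloid and from 1031 to 1666 CPM in astrocyte libraries. Thy1 went from 17.3 to 75.3 CPM and from 30.9 to 78.9 CPM. The part of neurons or of the transgenes in these rises was not tested.

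Arhgap6, a GTPase-activating protein, had the largest rise shared by both sorts. It stood at 3.21 to 7.96 CPM in non-Tg myeloid libraries and at 321, 311, 408, 10 and 532 CPM in PS2APP ones. In astrocyte libraries it stood at 6.97 to 15.2 CPM in non-Tg and at 76.3, 212, 3.76, 214 and 223 CPM in PS2APP mice. PS2APP myeloid replicate 4 and PS2APP astrocyte replicate 3, the libraries that lay apart over all genes, were the 2 PS2APP libraries without a large rise. In both sorts Arhgap6 passed the 10 CPM level only through the PS2APP group, so that its rise was needed for it to be counted. The difference of 1.96 had a 95% interval of 0.10 to 3.81 and did not pass (edgeR adjusted p = 0.54). Without both libraries the log2 changes of Arhgap6 were 6.11 in myeloid and 4.19 in astrocyte libraries, and the difference of 1.92 passed (edgeR adjusted p = 0.033).

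**Figure D5:**
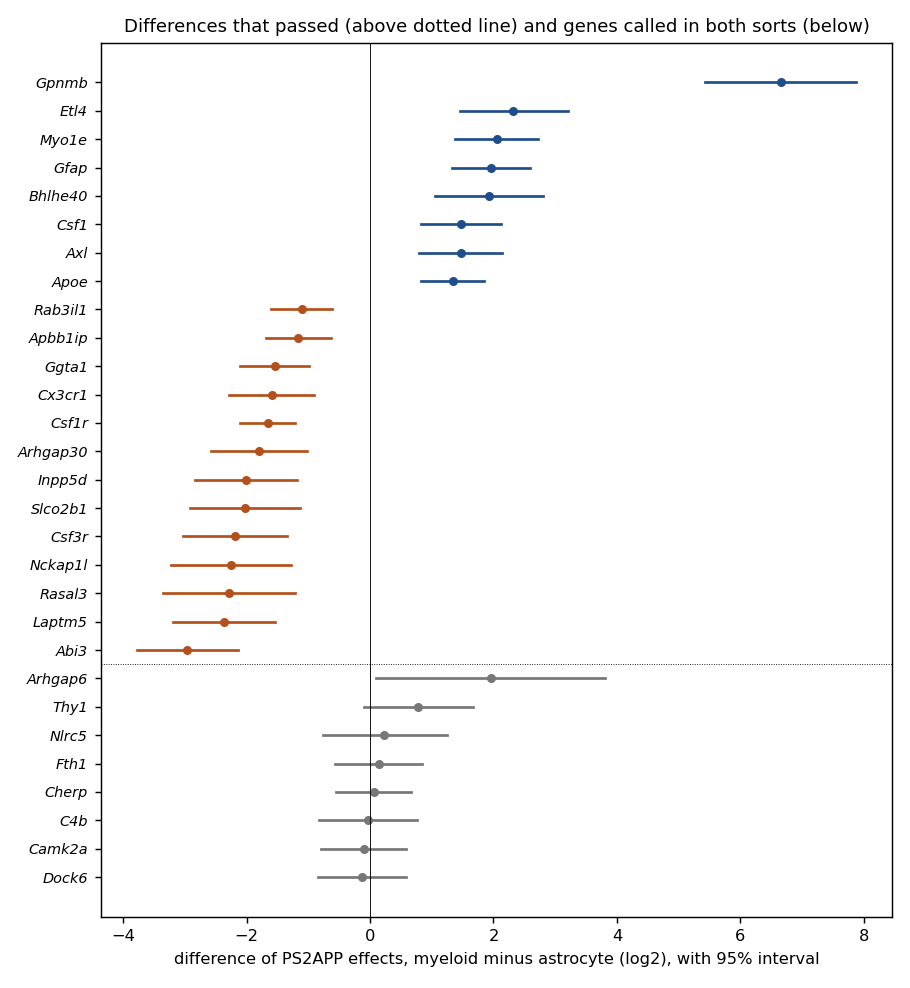
Difference of the PS2APP effect, myeloid minus astrocyte, on the log2 scale with its 95% interval, for 21 of the 22 genes that passed (above the dotted line; ID102639643 is not drawn) and for the 8 genes named as called in both sorts (below). The 8 blue intervals lie above 0, the 13 orange ones below 0, and below the line all but that of Arhgap6 include 0.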

How the data were processed

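RNA from sorted mouse brain cells was sequenced, and 20 glial libraries in 4 groups of 5 were compared. Per the file headers, the deposited count gives uniquely aligned reads per gene model, and the deposited RPKM is that count per length and per size-factor-adjusted depth, both made by the authors. Per the submitters' processing notes the aligner was GSNAP and the build GRCm38, while versions and annotation were not given in those sources. The RPKM column was checked against the counts over 5061 genes (largest relative deviation 7.77e-15). Entrez identifiers were matched to symbols in a RefSeq table (GRCm38.p6). Per the labels' protocols, less RNA was obtained from astrocytes than from myeloid cells, and any effect of the sort itself, such as its library preparation, cannot be told apart from cell type, whereas genotype was compared within a sort.

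Counts were fitted in 1 model over 20 libraries with edgeR 4.0.16 in R 4.3.3 (TMM factors, filterByExpr by group, quasi-likelihood test, Benjamini-Hochberg adjustment over 15704 genes, threshold 0.05). SE is the coefficient divided by the square root of F, with 95% intervals. CPM uses the TMM factors, and log2 differences come from the fit. Replicate numbers follow accession order and only name libraries. The lowest chi-square per degree of freedom between libraries of a group was 5.39, so no pair was within sampling noise. In simulated data (15228 genes) the test recovered 77 of 100 genes with a 4-fold and 14 of 100 with a 2-fold difference, with 2 false calls. Those changes were placed in the PS2APP myeloid group alone, in genes simulated at 10 CPM or more in both sorts. The recovery rates therefore do not describe genes that changed in astrocyte libraries from a lower level. Alternatives used DESeq2 1.42.0, limma 3.58.1, other scaling factors, CPM minimums, covariates and left-out libraries. Figures used matplotlib 3.10.9.

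The members and gene lists were chosen with earlier results of these data known. Genes named by rule were Apoe, Csf1, Axl, Itgam and Gfap, the 10 largest differences that passed in each direction and those within 4-fold between sorts, up to 8 genes that passed in both sorts, and the 2 members of smallest p of each list. Every gene whose difference passed is named as well, and other list members were named after their values were seen. The values of 1 myeloid marker are not reported here on their own.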

Additional observations from a re-analysis of the deposited data

Results flagged for a closer look

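For each of the 22 comparable genes named in the report the PS2APP effect itself differed between myeloid and astrocyte libraries (edgeR quasi-likelihood test, adjusted p under the threshold). On the log2 scale the difference was 6.65 for Gpnmb, 2.32 for Etl4, 2.05 for Myo1e, 1.96 for Gfap, 1.92 for Bhlhe40, 1.48 for Csf1, 1.47 for Axl and 1.34 for Apoe. In the other direction it was -2.96 for Abi3, -2.37 for Laptm5, -2.29 for Rasal3, -2.26 for Nckap1l, -2.21 for ID102639643, -2.19 for Csf3r, -2.02 for Slco2b1, -2.01 for Inpp5d, -1.80 for Arhgap30, -1.66 for Csf1r, -1.59 for Cx3cr1, -1.54 for Ggta1, -1.16 for Apbb1ip and -1.11 for Rab3il1.

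In 11 of 152 groups of 5 libraries that were checked, 1 library lay far from the other 4, where chance alone gives about 1 in 20. PS2APP astrocyte replicate 3 was the library in 5 of them. It held 66.4 CPM of Rasal3 (11.6 to 18.2 in the other 4), 35.4 CPM of Nckap1l (5.82 to 12.9) and 84.6 CPM of Csf3r (19.3 to 27.5). Its astrocyte markers summed to 7869.9 CPM (10594 to 11372 in the other 4) and its neuron markers to 2661 CPM (1379 to 1486). PS2APP astrocyte replicate 2 held 66.1 CPM of Etl4 (28.8 to 32.6), and non-Tg astrocyte replicate 4 held 44.8 CPM of Thy1 (25.8 to 29.2). Among myeloid libraries, PS2APP replicate 4 held 52.5 CPM of Bhlhe40 (15.7 to 26.3) and oligodendrocyte markers summed to 1707 CPM in PS2APP replicate 2 (1068 to 1244). Camk2a stood at 259 CPM in non-Tg myeloid replicate 5 (125 to 154), and ID102639643 at 170.3 CPM in non-Tg myeloid replicate 1 (244 to 266).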

How the results depend on the processing

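No paired analysis was possible because the labels carry no replicate numbers and name no animal, so the numbers used here only name libraries. The reported counts were 22 genes with a different effect (8 more positive and 14 more negative in myeloid libraries), 125 genes in myeloid and 95 in astrocyte libraries. With 1 library left out these ranged over 14 to 29 (5 to 8 and 9 to 23), 49 to 264 and 37 to 204. The myeloid count was lowest without non-Tg myeloid replicate 4 and highest without PS2APP astrocyte replicate 3, and the astrocyte count was lowest without PS2APP astrocyte replicate 3 and highest without non-Tg astrocyte replicate 1. With no filter on low counts the counts were 50 (14 and 36), 257 and 193. DESeq2 gave 41 (17 and 24), 456 and 325, with all 22 genes among the 41. In the simulated data DESeq2 made 11 false calls for the difference, where the edgeR test made 2. DESeq2 also recovered more there, with 84 of 100 genes at a 4-fold difference, where the edgeR test recovered 77. At a 2-fold difference DESeq2 recovered 25 of 100 genes and the edgeR test 14. limma's voom with sample weights gave 15 (8 and 7), 408 and 299, with 13 of the 22 among the 15. A fit of all 30 libraries gave 45 (14 and 31), 448 and 152, and moved the median difference of all genes to -0.112 from -0.053. A level of 5 CPM gave 24 more negative genes, and a level of 20 CPM gave 12 in all with 5 more negative. A level of 10 CPM in both genotypes of both sorts gave 8 in all with 2 more negative, Csf1r and Ggta1, and 54 in astrocyte libraries. The level of 10 CPM in the non-Tg groups alone, an alternative chosen after seeing the data, gave 8 with 2 more negative, and 58 in astrocyte libraries. With other-cell marker sums as covariates the counts were 2 (1 and 1) and 4 in astrocyte libraries. With the mitochondrial share as a covariate they were 5 more positive, 16 in myeloid and 28 in astrocyte libraries, and the calls of Bhlhe40, Csf1, Axl and Apbb1ip were lost (edgeR adjusted p = 0.075, 0.052, 0.063 and 0.058). Xist ranged from 0.306 to 54.9 CPM over the 20 libraries, all of which held the Y-linked gene Kdm5d (47.8 to 113 CPM). An Xist covariate gave 56 in astrocyte libraries and kept 18 of the 22, with Axl, Rasal3, Apbb1ip and Rab3il1 lost (edgeR adjusted p = 0.052, 0.064, 0.080 and 0.053). Leaving out PS2APP myeloid replicate 4 with PS2APP astrocyte replicate 3 gave 41 there and kept 15 of the 22. The cause of these changes was not tested. Other scaling factors in the edgeR test kept all 22 calls, except that Rasal3 was lost with relative log expression (RLE) factors. No sign of the 22 differences turned under any alternative. Signs that turned belong to differences that did not pass. They were C4b (0.01 with upper quartile factors, 0.12 with voom, 0.19 with marker covariates, 0.21 without both libraries), Dock6 (0.14 with voom, 0.03 without both libraries) and Cherp (-0.03 with voom, -0.01 with 30 libraries, -0.47 with marker covariates, -0.01 with the mitochondrial share). Grin1 turned to -0.04 with voom and -0.04 with marker covariates, which also turned Itgam to 1.10, Camk2a to 0.05 and Tapbp to 0.29. Camk2a stood at 0.10 without both libraries and Fth1 at -0.06 with the mitochondrial share. With 1 library left out signs turned within -0.33 to 0.46 for Nlrc5, -0.07 to 0.28 for Fth1, -0.35 to 0.07 for Camk2a, -0.30 to 0.06 for Dock6, -0.53 to 0.10 for C4b, -0.10 to 0.19 for Cherp, -0.89 to 0.10 for Snap25, -0.12 to 0.50 for Cspg4 and -0.07 to 0.49 for Pdgfrb.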

Other observations

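Outside the comparable genes 29 more passed for the difference, 7 more positive and 22 more negative in myeloid libraries. At least 1 of the sorts held under 10 CPM of each, and for Oprd1, Trpm1, Rwdd2a, Gm36907 and ID102642565 both did. Cst7, a cystatin of plaque-associated microglia, stood at 2.14 CPM without and 77.9 CPM with the transgenes in myeloid libraries and at 0.947 and 0.961 CPM in astrocyte libraries, a difference of 5.08 on the log2 scale (edgeR adjusted p = 0.000298). Trpm1, a cation channel, stood at 0.0521 and 5.44 CPM in myeloid libraries and at 0.446 and 0.495 CPM in astrocyte libraries. Mamdc2 had the pattern of Gpnmb, with 0.202 and 6.12 CPM in myeloid and 17.7 and 13.7 CPM in astrocyte libraries (difference 5.22, edgeR adjusted p = 0.0105). Oprd1, the delta opioid receptor, stood at 4.81 and 1.2 CPM in myeloid and at 1.03 and 7.03 CPM in astrocyte libraries. These group means lay in opposite order, with a difference of -4.64 (edgeR adjusted p = 0.041). The lower mean of each sort was near the floor, inside the 0.456 to 1.488 CPM that a count of 3 gave.

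In the same order of genotypes H2-Ab1, an MHC class II chain, stood at 83.6 and 44.1 CPM in myeloid and at 0.112 and 2.75 CPM in astrocyte libraries. Tyrobp, a signalling adaptor of microglial receptors, stood at 175 and 269 CPM in myeloid and at 0.363 and 3.41 CPM in astrocyte libraries (difference -2.41, edgeR adjusted p = 0.0179). Csf2rb, a receptor subunit, and Irf8, a transcription factor of macrophages, had differences of -3.67 and -2.63.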
